A study of Mus musculus with 8 samples.

Results

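The unfolded protein response and the integrated stress response were followed through 10 genes in the mouse liver. They were Hspa5, Xbp1, Herpud1, Sdf2l1 and Creld2, called here the ER chaperone branch, and Atf4, Trib3, Asns, Chac1 and Fgf21, called here the Atf4 branch. The genes were chosen by symbol, and all 10 were among the 55487 genes of the count tables and among the 13400 genes with enough counts to be tested. The livers came from 4 control mice (numbers 154, 159, 181 and 193) and 4 hepatocyte-specific MC1R knockout mice (Mc1r LKO, numbers 141, 156, 157 and 182). All were males with both Mc1r alleles floxed (Mc1r fl/fl) that were put on a cholesterol-rich Western diet at 8 weeks of age, kept on it for 12 weeks and fasted for 4 hours before death. The Mc1r LKO mice also carried a Cre transgene driven by the albumin promoter (Alb Cre/+), which the paper used for deletion in hepatocytes. Whether other liver cells were recombined cannot be read from these counts. The controls carried no Cre, so that an effect of Cre and one of the deletion cannot be told apart. Polyadenylated RNA of whole liver was sequenced, and each value is a number of read pairs counted on a gene, given as CPM, that is relative to the library total after TMM scaling. The question put to these data was whether either branch differed between the genotypes, and how the branches compared with each other across livers.

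As background, proteins that enter the endoplasmic reticulum (ER) fold there with the help of chaperones, and hepatocytes, which secrete most plasma proteins, depend on this. When unfolded proteins accumulate, the membrane sensors IRE1, ATF6 and PERK respond. IRE1 splices the Xbp1 mRNA so that it encodes an active transcription factor, and XBP1 and ATF6 then raise chaperones and the machinery of ER-associated degradation. PERK belongs to a family of kinases, with GCN2, PKR and HRI, that phosphorylate the translation factor eIF2 alpha. This integrated stress response lowers general translation but favours translation of the Atf4 mRNA, and ATF4, often with C/EBP partners and CHOP, raises genes of amino acid supply and of feedback control. In the liver the hormone gene Fgf21 is a target of ATF4 and also of the fasting regulator PPAR-alpha. Counts per gene do not separate spliced from unspliced Xbp1 mRNA, nor do they measure translation of Atf4.

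The total count per liver was between 10773151 and 24763375, and the share on mitochondrial genes was between 6.39% and 7.17%. Mc1r had 0 counts in every liver, so the labels could not be checked against it (a count of 0 is compatible with up to 3 counts, that is 0.121 to 0.278 CPM depending on the liver, as far as counting error goes). Hepatocyte markers (Alb, Apoa1, Ttr, Serpina1a, Cps1 and Hnf4a) were present in every liver and summed to between 68142 and 98297 CPM. In whole tissue, fewer cells of a type and less RNA per cell cannot be told apart. Mc1r LKO mouse 182 and control mouse 181 stood apart from the other livers. On the first principal component of the residuals from the genotype means, which held 41.8% of the variance, they scored 53.6 and 34.6, whereas the other 6 livers lay between -21.0 and -4.30. Mouse 182 had the highest hepatocyte sum (98297 CPM, against at most 85721 CPM elsewhere). It had the lowest sums of the 8 livers for the Kupffer cell (155 CPM), sinusoidal endothelial (105 CPM), stellate (209 CPM), cholangiocyte (29.7 CPM), B or plasma cell (1.02 CPM) and T or NK cell (1.12 CPM) lists. The T or NK cell sum was close to that of mouse 156 (1.17 CPM). Of the cholangiocyte genes, Spp1 (16.8 CPM) and Epcam (0.409 CPM) were lowest in mouse 182. Sox9 was highest there (9.96 CPM), and Krt19 was not lowest (2.04 CPM). The neutrophil sum was not lowest in mouse 182 either (3.58 CPM, against 2.24 CPM in mouse 181). None of the marker genes tested had an unadjusted p under 0.05 between the genotypes. Because mice 181 and 182 weigh on most members, results are given with and without them.

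Short promoter elements through which ATF6, XBP1 and ATF4 are known to act were sought in the members, and the sequences that held one are shown because the livers were later compared by them. Exact matches, on both strands, were sought in the RefSeq window from 250 bases before to 50 bases after each start (build GRCm38.p6, the assembly of the count tables at a later patch). The ER stress response element ERSE was written as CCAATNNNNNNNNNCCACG, ERSE-II as ATTGGNCCACG, the unfolded protein response element UPRE as TGACGTGG, and the C/EBP-ATF response element CARE as TGATGNAA, where N is any base. The CCACG end of ERSE and ERSE-II also lies within the reverse complement of UPRE, so that matches to them can overlap. Of 32851 such windows in the genome, 0.119% held ERSE, 0.0365% ERSE-II, 0.676% UPRE and 3.97% CARE. Hspa5 and Creld2 held ERSE, Herpud1 held ERSE-II and CARE, and Trib3, Asns, Chac1 and Fgf21 held CARE. The windows of Xbp1, Sdf2l1 and Atf4 held none of these letters. The sequences below run 5′ to 3′ along the strand of the gene, with the elements in capitals. Positions count from the RefSeq start, which differs from the gene bounds of the count annotation for some members. By those bounds the printed elements of Hspa5 and Asns lie inside the gene, and that of Trib3, inside the RefSeq transcript, lies upstream. For these genes little more than the site is printed.
Hspa5, plus strand of chr2:34772020-34772049, ERSE from -65 to -47 relative to the RefSeq start: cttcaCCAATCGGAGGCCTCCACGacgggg
Creld2, plus strand of chr15:88819460-88819598, antisense ERSE from -126 to -108: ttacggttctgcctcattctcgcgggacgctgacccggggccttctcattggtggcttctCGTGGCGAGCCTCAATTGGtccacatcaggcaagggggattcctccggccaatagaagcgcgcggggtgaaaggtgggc
Herpud1, plus strand of chr8:94386257-94386428, antisense CARE from -112 to -105 and ERSE-II from -52 to -42: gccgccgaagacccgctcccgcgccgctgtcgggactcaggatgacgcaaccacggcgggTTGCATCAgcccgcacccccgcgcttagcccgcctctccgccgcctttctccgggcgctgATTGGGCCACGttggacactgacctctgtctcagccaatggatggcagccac
Trib3, minus strand of chr2:152344028-152344057, antisense CARE from 14 to 21: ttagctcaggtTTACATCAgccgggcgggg
Asns, minus strand of chr6:7693214-7693243, CARE from -23 to -16: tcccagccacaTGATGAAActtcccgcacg
Chac1, plus strand of chr2:119350992-119351116, antisense CARE from -193 to -186: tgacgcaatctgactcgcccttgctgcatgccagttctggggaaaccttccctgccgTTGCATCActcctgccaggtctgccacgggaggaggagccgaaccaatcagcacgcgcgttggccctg
Fgf21, minus strand of chr7:45615562-45615689, antisense CARE from -139 to -132: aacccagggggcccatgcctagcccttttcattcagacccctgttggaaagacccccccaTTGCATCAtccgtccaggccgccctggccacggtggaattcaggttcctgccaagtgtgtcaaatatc

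The ER chaperone branch did not differ between the genotypes beyond the spread between mice, and in each of its 5 genes the highest level of the 8 livers was in Mc1r LKO mouse 182. Hspa5 (ENSMUSG00000026864, chromosome 2 of GRCm38, 34771970 to 34777547) encodes BiP, the Hsp70 chaperone of the ER lumen that also holds the stress sensors inactive. It was at 822, 816, 1353 and 1009 CPM in control mice 154, 159, 181 and 193, and at 866, 910.2, 862 and 1892 CPM in Mc1r LKO mice 141, 156, 157 and 182. The first 3 Mc1r LKO livers lay close to one another and inside the control range, and mouse 182 lay above every liver. The control mean was 999.8 ± 252 CPM and the Mc1r LKO mean 1133 ± 507 CPM (SD, n = 4 each). The log2 fold change, Mc1r LKO over control here and throughout, was 0.18 with a 95% interval from -0.43 to 0.79. Without mouse 182 this log2 fold change was -0.18, and without mice 181 and 182 it was 0.0029.

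Sdf2l1 (ENSMUSG00000022769, chromosome 16, 17130138 to 17132383) encodes a protein of ER lumen chaperone complexes. Its level was 9.94, 25.8, 35.0 and 37.2 CPM in control mice 154, 159, 181 and 193, and 20.0, 21.1, 17.7 and 69.8 CPM in Mc1r LKO mice 141, 156, 157 and 182. Of all 10 genes it spanned the widest range, 7.02-fold between mouse 182 and control mouse 154. Its log2 fold change was 0.25 (95% interval -0.85 to 1.35), and -0.47 without mouse 182. Creld2 (ENSMUSG00000023272, chromosome 15, 88819646 to 88826683), which encodes an ER-resident protein induced by ER stress, ran in nearly the same order. It was at 41.0, 56.9, 75.0 and 61.6 CPM in the control mice and 48.1, 50.7, 45.2 and 129 CPM in the Mc1r LKO mice, in the same order of mouse numbers. The genotypes overlapped, with a log2 fold change of 0.22 (95% interval -0.52 to 0.96), which was -0.29 without mouse 182.

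Herpud1 (ENSMUSG00000031770, chromosome 8, 94386438 to 94395377) encodes an ER membrane protein of ER-associated degradation, and it came nearest of this branch to a genotype difference. It was at 403, 342, 650.4 and 431 CPM in control mice 154, 159, 181 and 193, and at 565, 557, 495 and 901 CPM in Mc1r LKO mice 141, 156, 157 and 182. Every Mc1r LKO liver lay above 3 of the 4 control livers, and control mouse 181 lay above 3 of the 4 Mc1r LKO livers. The means of 457 ± 134 and 629 ± 184 CPM (SD, n = 4 each) gave a log2 fold change of 0.46 (standard error 0.23, 95% interval -0.048 to 0.97, unadjusted p = 0.0710 and adjusted p = 0.771 in edgeR's quasi-likelihood test). The log2 fold change was 0.68 without control mouse 181 (unadjusted p = 0.00783 in the same edgeR test), 0.57 without Mc1r LKO mouse 157 (unadjusted p = 0.0448), 0.24 without mouse 182 (unadjusted p = 0.230) and 0.47 without both mice 181 and 182 (unadjusted p = 0.00226). With all mice it was called at an unadjusted p under 0.05 by DESeq2 (unadjusted p = 0.0456), with no filter beyond 1 count (unadjusted p = 0.0299) and with the first residual component as a covariate (unadjusted p = 8.43e-04). That component came from the same counts after removal of the genotype means, so it takes up spread between mice by construction. The standard error fell to 0.099 with it. None of these passed the Benjamini-Hochberg adjustment, and over all settings run the lowest adjusted p for Herpud1 was 0.257. Xbp1 (ENSMUSG00000020484, chromosome 11, 5520659 to 5525893), the transcription factor gene of the branch, varied least within it. Its level was 144, 226, 197 and 180.3 CPM in the control mice and 162, 151, 177 and 278 CPM in the Mc1r LKO mice. The log2 fold change of Xbp1 was 0.040 (95% interval -0.41 to 0.49) with all mice and -0.19 without mouse 182.

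**Figure D1:**
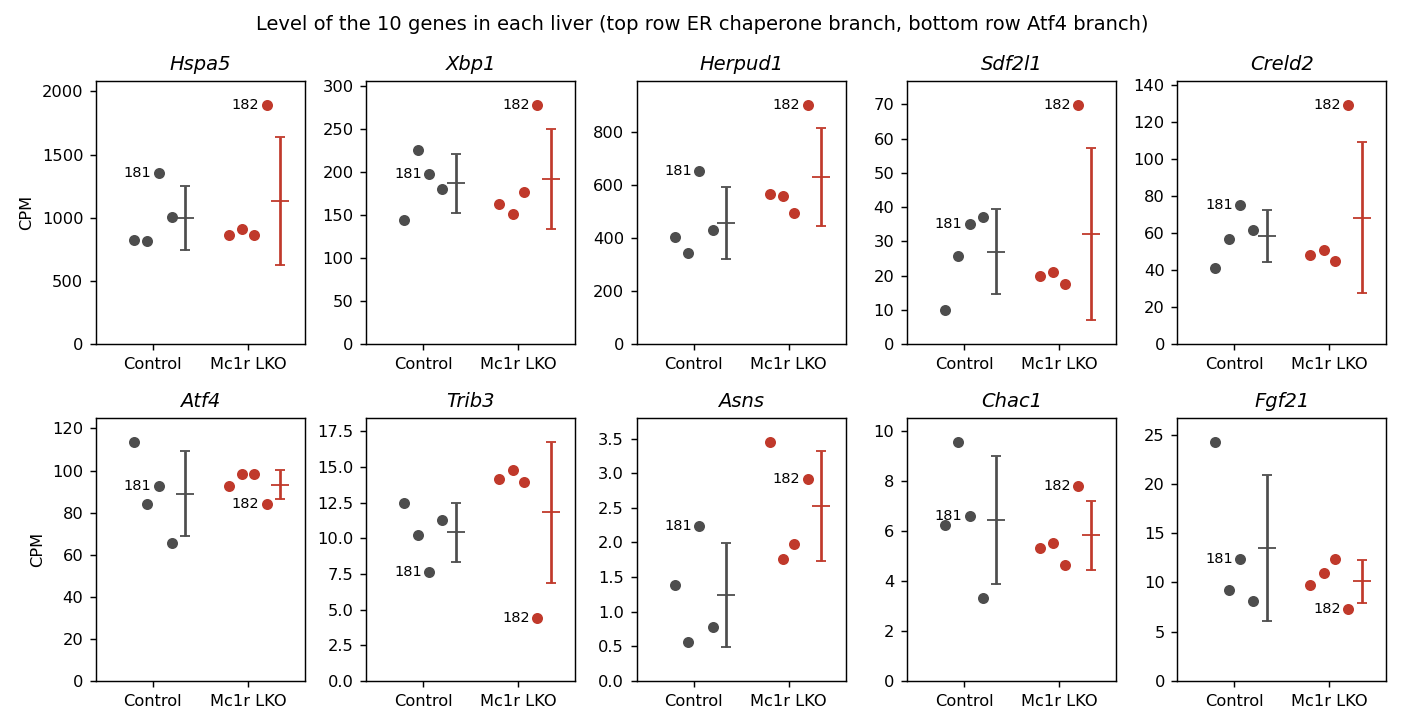
Level of each gene in CPM (vertical axis, from 0) in the 4 control livers (grey) and the 4 Mc1r LKO livers (red), with the mean and SD of each genotype at the right of its points and mice 181 and 182 labelled. In the top row mouse 182 is the highest point of every panel, from 69.8 CPM for Sdf2l1 to 1892 CPM for Hspa5, whereas in the bottom row it is the lowest point for Trib3 (4.39 CPM) and Fgf21 (7.26 CPM).

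Relative to the mean of the other 3 Mc1r LKO livers, mouse 182 had 3.57 times as much Sdf2l1, 2.69 times as much Creld2, 2.15 times as much Hspa5, 1.70 times as much Xbp1 and 1.67 times as much Herpud1. Mouse 182 was the highest of the 8 livers in 5 of 5 genes of the ER chaperone branch, in 0 of 5 genes of the Atf4 branch and in 20.2% of all genes tested. Control mouse 181 showed the same genes to a smaller degree, with 1.66 times the Herpud1, 1.53 times the Hspa5, 1.44 times the Sdf2l1 and 1.41 times the Creld2 of the other 3 control livers, but 1.08 times their Xbp1. In 3 of 5 genes of the ER chaperone branch (Hspa5, Herpud1 and Creld2) mice 182 and 181 were the 2 highest livers, against 12.6% of all genes tested, counted in either order. Since these livers belong to different genotypes, the share is a description of livers and not of the knockout. The marker sums of other cell types that were lowest in mouse 182 are given above, and their part in these levels was not tested. Of the 5 markers of pancreatic acinar cells, which like plasma cells are rich in ER, Prss2, Cpa1, Ctrb1 and Pnlip were at 0 counts in every liver, and the list summed to between 0.0404 and 0.207 CPM.

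In the Atf4 branch, the genotypes overlapped in every gene and no gene was highest in mouse 182. Atf4 (ENSMUSG00000042406, chromosome 15, 80255184 to 80257541), the transcription factor of the branch, was at 114, 84.2, 92.9 and 65.4 CPM in control mice 154, 159, 181 and 193. It was at 92.7, 98.4, 98.1 and 84.0 CPM in Mc1r LKO mice 141, 156, 157 and 182, inside the control range. The log2 fold change of 0.068 had a 95% interval from -0.26 to 0.40, the narrowest of the 10 genes. Trib3 (ENSMUSG00000032715, chromosome 2, 152337422 to 152344032) encodes a pseudokinase induced by ATF4 and CHOP. It was at 12.5, 10.2, 7.66 and 11.3 CPM in the control mice and at 14.2, 14.8, 13.9 and 4.39 CPM in the Mc1r LKO mice, so that 3 Mc1r LKO livers lay above every control liver and mouse 182 below every liver. With all mice the log2 fold change of Trib3 was 0.18 (95% interval -0.55 to 0.90, unadjusted p = 0.597 in edgeR's quasi-likelihood test). Without mouse 182 it was 0.46 (unadjusted p = 0.0168, adjusted p = 0.574 in the same edgeR test), and without mice 181 and 182 it was 0.34 (unadjusted p = 0.0251). Mouse 182 had 0.308 times the Trib3 of the other Mc1r LKO livers, the opposite of its place in the ER chaperone branch, and mouse 181 had 0.676 times that of the other controls.

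Asns (ENSMUSG00000029752, chromosome 6, 7675169 to 7693254) encodes asparagine synthetase, a classical ATF4 target, and was the one member with an unadjusted p under 0.05. Its level was 1.38, 0.558, 2.24 and 0.775 CPM in control mice 154, 159, 181 and 193 and 3.46, 1.75, 1.98 and 2.91 CPM in Mc1r LKO mice 141, 156, 157 and 182, from between 6 and 57 read pairs per liver. All 4 Mc1r LKO livers lay above 3 of the control livers, and mouse 181 lay above Mc1r LKO mice 156 and 157. The means were 1.24 ± 0.754 and 2.53 ± 0.798 CPM (SD, n = 4 each), a log2 fold change of 0.99 (standard error 0.42, 95% interval 0.054 to 1.93, unadjusted p = 0.0402, adjusted p = 0.734 in edgeR's quasi-likelihood test). The unadjusted p went above 0.05 when control mouse 154, 159 or 193 or Mc1r LKO mouse 141 or 182 was left out (0.0613 to 0.107 over those edgeR fits), with log2 fold changes from 0.80 to 1.44 over all fits that left out 1 liver.

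Chac1 (ENSMUSG00000027313, chromosome 2, 119351229 to 119354381) encodes an enzyme that degrades glutathione and is induced through ATF4. It was at 6.22, 9.58, 6.62 and 3.30 CPM in the control mice and at 5.32, 5.52, 4.65 and 7.82 CPM in the Mc1r LKO mice, wholly inside the control range. Its log2 fold change was -0.12 (95% interval -0.79 to 0.54). Fgf21 (ENSMUSG00000030827, chromosome 7, 45613886 to 45615490) encodes the hepatic hormone FGF21. Its level was 24.3, 9.20, 12.4 and 8.07 CPM in the control mice and 9.75, 11.0, 12.4 and 7.26 CPM in the Mc1r LKO mice. Control mouse 154 lay above all others, and the remaining 7 livers lay between 7.26 and 12.4 CPM. The log2 fold change of -0.42 (95% interval -1.15 to 0.30) became 0.033 without control mouse 154.

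**Figure D2:**
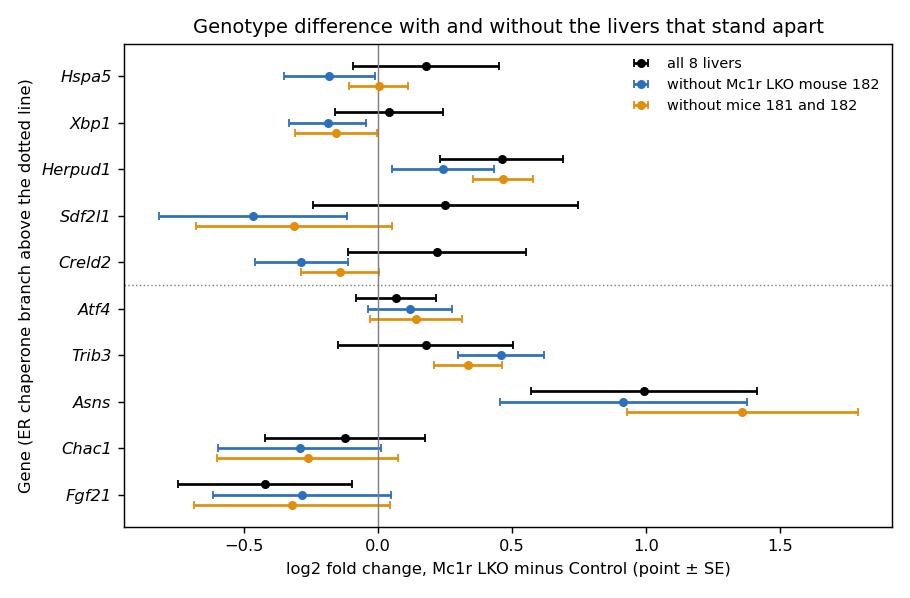
Log2 fold change of each gene, Mc1r LKO minus control, with its standard error (horizontal axis), with all 8 livers (black), without Mc1r LKO mouse 182 (blue) and without mice 181 and 182 (orange). Hspa5, Xbp1, Sdf2l1 and Creld2 move from above to below 0 when mouse 182 is left out, whereas Herpud1 and Asns stay above 0 in all 3 fits.

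Read as a list, 1 of the 10 genes (Asns) had an unadjusted p under 0.05, against 6.72% of the 13400 genes tested. It was higher in Mc1r LKO mice, as were 3.86% of all genes by the same rule, and 0 of 10 were lower, against 2.87%. After Benjamini-Hochberg adjustment over all genes, 0 of 10 passed in edgeR's quasi-likelihood test, where 0% of all genes passed. With DESeq2, 2 of 10 (Herpud1 and Asns) had an unadjusted p under 0.05, and none of the 8 members with an adjusted p passed (it gave none for Asns and Chac1). With limma-voom 1 of 10 had an unadjusted p under 0.05 and 0 of 10 passed the adjustment. Of all 13400 genes, 525 were higher and 412 lower at an unadjusted p under 0.05 with DESeq2, and 545 and 354 with limma-voom. The genotypes overlapped in all 10 genes, whereas they did not overlap in 4.16% of all genes. The median log2 fold change was 0.22 in the ER chaperone branch, with 5 of 5 genes above 0, and 0.068 in the Atf4 branch, with 3 of 5 above 0, beside a median of -0.011 over all genes tested. Without mouse 182 the medians were -0.19 and 0.12, and without both mice 181 and 182 they were -0.14 and 0.14.

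The branches were then compared within each liver by the mean log2 CPM of their 5 genes. The ER chaperone branch was at 7.34 ± 0.382 in control and 7.51 ± 0.589 in Mc1r LKO mice (SD, n = 4 each), and the Atf4 branch at 3.26 ± 0.361 and 3.44 ± 0.163. The distance between the branches was 4.07 in each genotype, with an SD of 0.634 in control and 0.744 in Mc1r LKO mice, so that the genotypes differed in it by 1.46e-04. Each branch was 0.17 higher in Mc1r LKO mice on the log2 scale, below the SD of either genotype in the ER chaperone branch, and below that of the control mice but not of the Mc1r LKO mice in the Atf4 branch. Without mouse 182 the ER chaperone branch of the Mc1r LKO mice was 7.22 ± 0.0461 (SD, n = 3), that is 0.12 below the controls, and the Atf4 branch was 3.51 ± 0.0654, that is 0.25 above them. The difference in distance was then -0.37. Without both mice 181 and 182 the ER chaperone branch was 0.015 higher in Mc1r LKO mice and the Atf4 branch 0.30 higher. The difference in distance was -0.29 in that case. Without control mouse 193 the Atf4 branch was 0.028 higher in Mc1r LKO mice. Mice 141, 156 and 157 were close to one another in both branches, whereas the control livers spread from 6.84 (mouse 154) to 7.75 (mouse 181) in the ER chaperone branch and from 2.83 (mouse 193) to 3.67 (mouse 154) in the Atf4 branch. Control mouse 154 had the lowest ER chaperone branch and the highest Atf4 branch of the 8 livers, and mouse 182 had the widest distance between the branches (5.19).

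**Figure D3:**
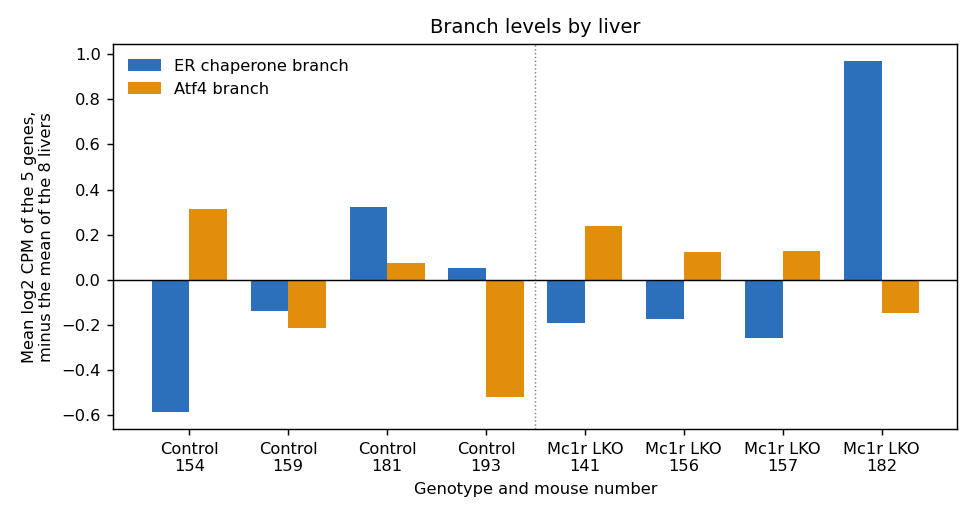
Mean log2 CPM of the 5 genes of the ER chaperone branch (blue) and of the Atf4 branch (orange) in each liver, minus the mean of the 8 livers (vertical axis), with the control mice left of the dotted line. The ER chaperone branch is 0.97 above the mean in mouse 182 and 0.32 above it in mouse 181, and the branches point in opposite directions in mice 154, 193, 141, 156, 157 and 182.

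The genes were also compared pair by pair across the 8 livers, in log2 CPM and over 45 pairs. Within the ER chaperone branch the median Pearson r over 10 pairs was 0.84 (range 0.43 to 0.96), and 8 pairs had an exact permutation p under 0.05, 6 of them after Benjamini-Hochberg adjustment over the 45 pairs. By Spearman's rho the 2 counts were 6 and 1. Within the Atf4 branch the median r over 10 pairs was 0.15 (range -0.48 to 0.79), and 1 pair had an exact p under 0.05 and 0 after adjustment. Between the branches the median over 25 pairs was -0.36, with 6 pairs under 0.05 and 3 after adjustment. Leaving out the 2 livers farthest from the median of the first gene of a pair, the medians were 0.58, 0.19 and -0.44, and the number of pairs under 0.05 went from 8 to 1 within the ER chaperone branch, from 1 to 3 within the Atf4 branch and from 6 to 3 between the branches. With 6 livers an exact test needs a larger r to pass. Without mice 181 and 182 the median r was 0.46 within the ER chaperone branch, with 6 of 10 pairs positive, and 0.32 within the Atf4 branch, with 8 of 10 positive, so that the contrast between the branches was much smaller there. The difference between the branches in r was not tested.

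Of the 8 pairs of the ER chaperone branch under 0.05, r went from 0.73 to -0.094 for Hspa5 and Xbp1 and from 0.85 to 0.31 for Hspa5 and Herpud1 without the 2 farthest livers, whereas the other 6 had an r of 0.56 to 0.92 there. For Sdf2l1 and Creld2 r was 0.94 (exact permutation p = 9.92e-05, adjusted p = 0.00446) and rho 0.98 (exact p = 3.97e-04, adjusted p = 0.0179), and without mice 154 and 182 r was 0.92. Hspa5 and Creld2 had an r of 0.96 (exact permutation p = 0.00188, adjusted p = 0.0331) and a rho of 0.76 (exact p = 0.0368, adjusted p = 0.159), and r was 0.60 without mice 181 and 182. For Hspa5 and Xbp1 an r of 0.73 (exact permutation p = 0.0412, adjusted p = 0.124), with a rho of 0.40 (exact p = 0.327, adjusted p = 0.566), became -0.094 without the same mice. Trib3 had a negative r with each gene of the ER chaperone branch. With Creld2 r was -0.95 (exact permutation p = 0.00221, adjusted p = 0.0331) and rho -0.74 (exact p = 0.0458, adjusted p = 0.159), with an r of -0.57 without mice 181 and 182. With Hspa5 r was -0.92 and rho -0.40 (exact p = 0.327), and r was 0.041 without the same mice. With Herpud1 r was -0.64 and rho -0.21 (exact p = 0.619), and r was -0.35 without the 2 farthest livers. For Xbp1 and Sdf2l1 r was -0.87 and -0.81, and -0.71 and -0.79 without the 2 farthest livers. Of the 25 pairs between the branches, the highest r was that of Herpud1 and Asns, the members with the largest log2 fold changes (0.46 and 0.99). An r over both genotypes includes that difference. There r was 0.81 (exact permutation p = 0.0143, adjusted p = 0.0536) and rho 0.88 (exact p = 0.00724, adjusted p = 0.109), with an r of 0.71 without mice 159 and 182. Atf4 and Fgf21 formed the pair within the Atf4 branch, with an r of 0.79 (exact permutation p = 0.0338, adjusted p = 0.117), a rho of 0.88 (exact p = 0.00724, adjusted p = 0.109) and an r of 0.82 without mice 154 and 193.

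**Figure D4:**
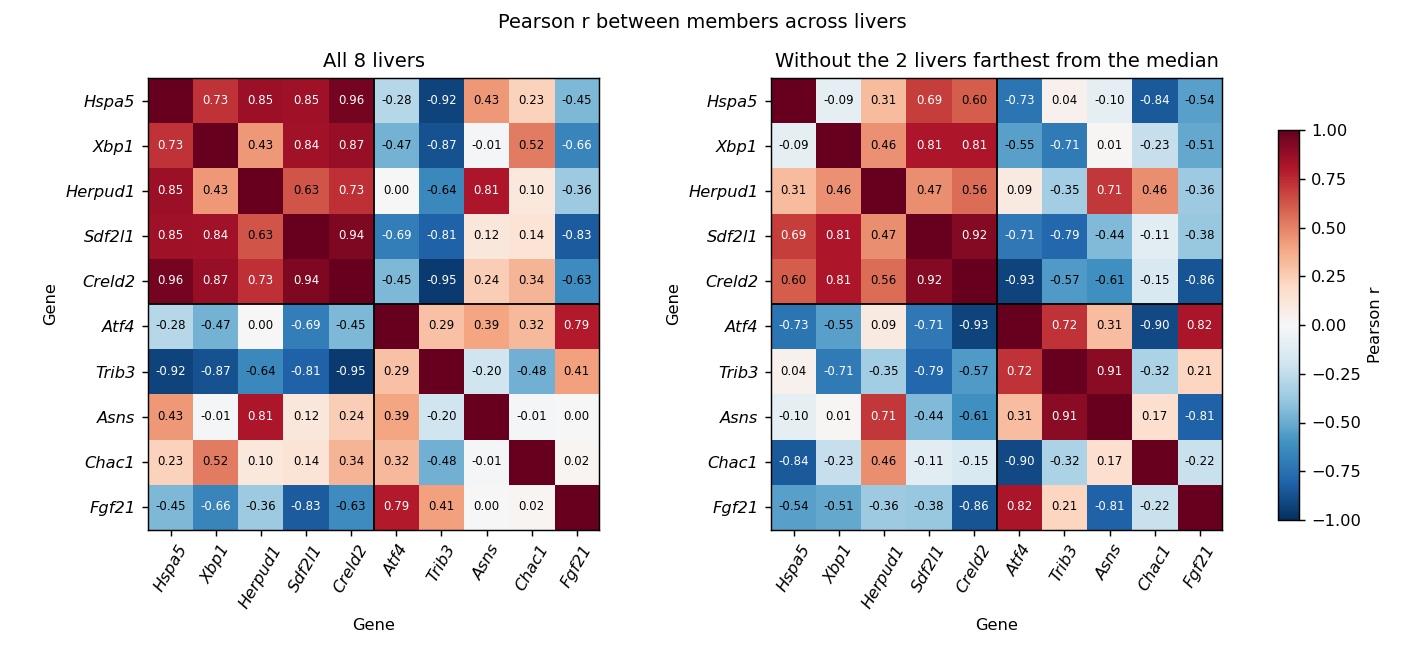
Pearson r between the log2 CPM of each pair of genes over all 8 livers (left) and over 6 livers, without the 2 farthest from the median of the first gene of the pair (right), with the branches divided by black lines. The block of 10 pairs of the ER chaperone branch has a median r of 0.84 on the left and 0.58 on the right, and the Atf4 branch has medians of 0.15 and 0.19.

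The spread of the members between mice of one genotype was larger than that of most genes. The pooled SD of log2 CPM was 0.90 for Sdf2l1, above 99.1% of the 2249 genes within 0.5 log2 units of its level, 0.57 for Creld2 (above 97.9% of such genes) and 0.46 for Hspa5 (above 93.9%). In the Atf4 branch, Trib3 had an SD of 0.63, above 97.0% of genes of like level, and Fgf21 of 0.55, above 95.7%, whereas Atf4 itself had 0.25, above 81.9%. Per length of transcript (FPKM over the annotated exons, mean ± SD over n = 8 livers), Hspa5 was at 252 ± 89.2 and Herpud1 at 233 ± 75.1, a difference inside their spread. They were followed by Xbp1 (58.3 ± 13.6), Creld2 (46.5 ± 21.0), Atf4 (38.7 ± 5.95) and Sdf2l1 (26.7 ± 16.8), among which neighbours also overlapped within 1 SD. Fgf21 (12.4 ± 5.66), Trib3 (5.23 ± 1.69), Chac1 (3.74 ± 1.18) and Asns (0.688 ± 0.364) stood lower on the same scale.

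Lists of genes of the same pathways placed the members in context. Of 29 ER chaperones and folding enzymes, members included, 1 had an unadjusted p under 0.05 in edgeR's quasi-likelihood test, against 6.72% of all genes tested. This was Erp29, a luminal protein related to the disulfide isomerases, which was higher in every Mc1r LKO liver (51.5 ± 3.57 against 58.5 ± 0.773 CPM, SD, n = 4 each, log2 fold change 0.18, unadjusted p = 0.0397). It kept an unadjusted p under 0.05 in 1 of the 8 fits that left out 1 liver, with the highest p, 0.108, without control mouse 154. The genes next in order of p, Fkbp2 (log2 fold change 0.23, unadjusted p = 0.0511) and Ppib (0.19, unadjusted p = 0.208), are prolyl isomerases of the ER. The median log2 fold change of the list was 0.097, and it was -0.12 without mouse 182 and -0.013 without both mice 181 and 182. Mouse 182 was the highest liver for 19 of the 26 genes that are not members, against 20.2% of all genes, with a median log2 difference of 0.42 from the other Mc1r LKO livers, where all genes had a median of -0.010. Hyou1 (2.41 times the other Mc1r LKO livers), Pdia4 (1.94 times) and Hsp90b1 (1.77 times), an ER chaperone, a disulfide isomerase and the ER form of Hsp90, were among the higher genes. Selenom (0.539 times) and Fkbp11 (0.883 times) were the lowest of the list on this ratio. These 5 genes were picked after their values were seen. Ratios of list genes, here and below, come from differences of mean log2 CPM (prior count 2), whereas those of the members are ratios of CPM.

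For ER-associated degradation, 0 of 20 genes had an unadjusted p under 0.05 in edgeR's quasi-likelihood test, 1 (Herpud1) in DESeq2 and 0 in limma-voom, and mouse 182 was highest in 11 of the 19 genes that are not members. After Herpud1 the smallest p-values were those of Selenos (log2 fold change 0.22, unadjusted p = 0.0913) and Aup1 (0.14, unadjusted p = 0.168), which both take part in drawing proteins out of the ER. Derl3, a channel protein of this pathway, was 7.19 times as high in mouse 182 as in the other Mc1r LKO livers, and the ubiquitin ligase gene Syvn1 2.96 times, both named after their values were seen. Of 26 genes of translocation into and export from the ER, Sec61b, a subunit of the translocon (log2 fold change 0.19, unadjusted p = 0.0238), and Ssr2 of the translocon-associated complex (0.20, unadjusted p = 0.0443) were higher in Mc1r LKO mice, as were 3.86% of all genes tested at an unadjusted p under 0.05. The genotypes did not overlap in Sec61b (48.4 ± 1.48 against 55.1 ± 1.29 CPM, SD, n = 4 each), as in 4.16% of all genes tested. Sec61b kept its call in 5 of the 8 fits that left out 1 liver, and Ssr2 kept its call in 2 (without mouse 182 its p was 0.106). Of the 10 sensors and transcription factors of the response, 0 had an unadjusted p under 0.05 with any of edgeR, DESeq2 and limma-voom. Creb3 (log2 fold change 0.18, unadjusted p = 0.0544), Mbtps1 (-0.12, unadjusted p = 0.147) and Mbtps2 (0.16, unadjusted p = 0.206), of which the latter pair encode the proteases that cut ATF6, had the smallest p-values. Mouse 182 was highest in 2 of these 10, Xbp1 among them, a share near that of all genes.

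Of 28 tested ATF4 and CHOP factors and targets, 4 had an unadjusted p under 0.05 in edgeR's quasi-likelihood test, all 4 higher in Mc1r LKO mice, against 3.86% of all genes. Ddit4 (log2 fold change 0.97, unadjusted p = 0.00996), which encodes the mTORC1 inhibitor REDD1, was at 9.65 ± 1.94 and 19.0 ± 8.93 CPM (SD, n = 4 each). Cebpb (0.61, unadjusted p = 0.0189), a C/EBP partner of ATF4, was higher in every Mc1r LKO liver than in any control liver. Eif4ebp1 (0.29, unadjusted p = 0.0239), a repressor of cap-dependent translation, and Slc38a2 (0.47, unadjusted p = 0.0441), an amino acid transporter, completed the count. With DESeq2 the count was 6 and with limma-voom 5, where 525 and 545 of all 13400 genes tested were higher. Ddit4 kept an unadjusted p under 0.05 in 8 of the 8 fits that left out 1 liver, Cebpb in 7, Eif4ebp1 in 6 and Slc38a2 in 4 (highest p 0.0649 and 0.0763 without mouse 156 for Cebpb and Eif4ebp1, and 0.133 without mouse 182 for Slc38a2), and the adjusted p of the 4 genes was 0.734 or 0.735 with all mice. Without mice 181 and 182, 8 of 28 were higher at an unadjusted p under 0.05 (the same 4 with Ddit3, Trib3, Nupr1 and Herpud1) and 0 lower, where 532 of all 13385 genes then tested were higher. Ddit3, which encodes CHOP, had a log2 fold change of 0.26 with all mice (unadjusted p = 0.374). Stc2, Slc7a11 and Aldh1l2 were not tested because of low counts.

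Mouse 182 was the lowest of the 8 livers in 8 of the 28 ATF4 and CHOP genes and the highest in 7, shares near the 21.7% and 20.2% of all genes tested. The lowest included Slc7a5 (0.142 times the other Mc1r LKO livers), Nupr1 (0.177 times) and Vldlr (0.243 times) beside Trib3 and Fgf21, and the highest included Atf3 (2.26 times), Cth (2.02 times) and Ddit3 (1.57 times) beside Herpud1. The genes given with a ratio were picked after their values were seen. Slc7a5 was at 0.204 CPM in mouse 182, where 3 counts are 0.140 CPM. Of 9 tested genes for serine, glycine, asparagine and proline synthesis, Asns was the 1 with an unadjusted p under 0.05, against 6.72% of all genes tested. It was followed by Got1 (log2 fold change 0.46, unadjusted p = 0.0862 in edgeR's quasi-likelihood test) and Mthfd2 (0.49, unadjusted p = 0.214). Of these 9 genes, 3 (Psat1, Mthfd1l and Aldh18a1) were lowest in mouse 182 and 2 were highest there, against 21.7% and 20.2% of all genes tested. None of the 17 genes for eIF2 alpha kinases, phosphatases and eIF2B had an unadjusted p under 0.05 in edgeR, DESeq2 or limma-voom, and Eif2b1 (0.14, unadjusted p = 0.147), Eif2b3 (0.30, unadjusted p = 0.165) and Eif2ak2 (-0.17, unadjusted p = 0.202) had the smallest. The same tools found 0 of 20 aminoacyl-tRNA synthetases, genes that ATF4 raises in other settings, of which Sars (0.17, unadjusted p = 0.0725), Rars (0.14, unadjusted p = 0.151) and Qars (0.14, unadjusted p = 0.172) came first. Mouse 182 was the highest liver in 8 of these 20 synthetases and the lowest in 0, against 20.2% and 21.7% of all genes tested. Of 12 mitochondrial chaperones and proteases, 1 had an unadjusted p under 0.05 in edgeR's quasi-likelihood test, against 6.72% of all genes tested. This was Hspe1, the mitochondrial Hsp10, which was higher in every Mc1r LKO liver (87.2 ± 4.21 against 108 ± 6.34 CPM, SD, n = 4 each, log2 fold change 0.31, unadjusted p = 0.00333). Clpp (0.11, unadjusted p = 0.246) and Spg7 (-0.086, unadjusted p = 0.389) followed. In these 12 mitochondrial genes mouse 182 was the highest liver in 6 and the lowest in 2.

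**Figure D5:**
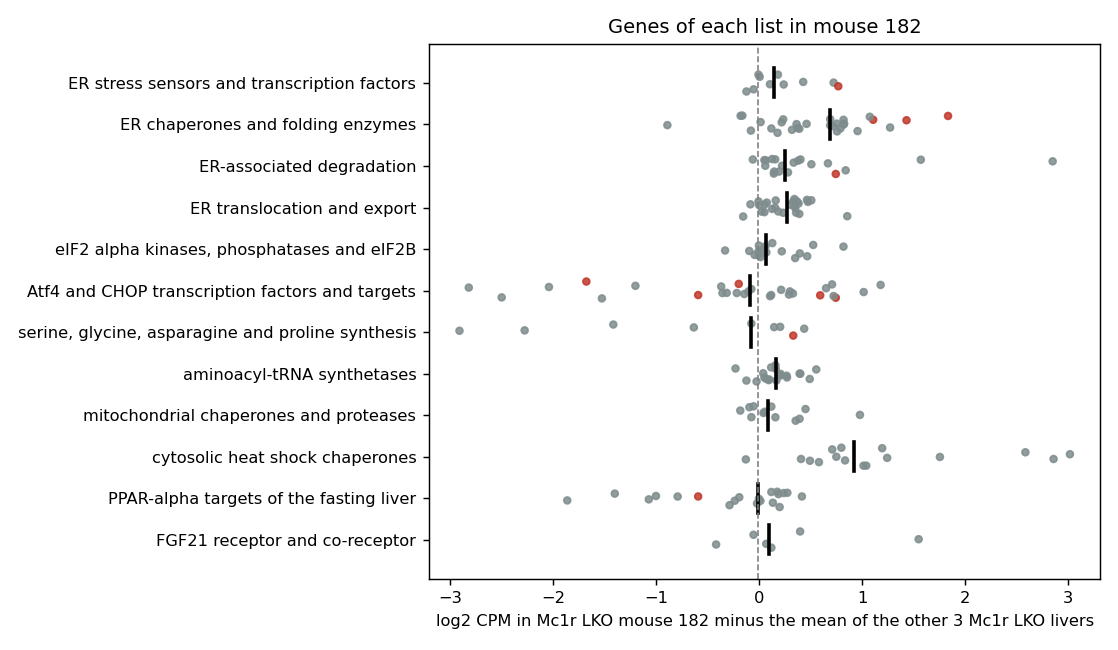
Log2 CPM in Mc1r LKO mouse 182 minus the mean of the other 3 Mc1r LKO livers (horizontal axis) for each tested gene of 12 lists, with members in red, the median of each list as a black bar and the median of all genes tested (-0.010) as a dashed line. The ER chaperones have a median of 0.69 and the cytosolic heat shock chaperones 0.92, whereas the list of ATF4 and CHOP targets spreads to both sides around -0.090.

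The elements printed above were also counted in the lists. Of 24 ER chaperone genes with a promoter window, 11 held ERSE, ERSE-II or UPRE, against 0.822% of all windows, and of 26 ATF4 and CHOP genes 9 held CARE, as did 5 of 13 aminoacyl-tRNA synthetases. Of the 16 tested genes in the genome that held ERSE and are not members, 9 were highest in mouse 182 (56.2%), whereas this was the case for 20.6% of the tested genes with a window. Of these 9, Calr, Canx, Hsp90b1, Pdia6, Dnajc3, Derl3 and Syvn1 belong to the lists counted above, and Acnat2 and Hnrnpa3 to none. The tally was chosen after the values of mouse 182 were seen. For ERSE-II, 5 of 8 such genes were highest in mouse 182, but for UPRE, the larger set, only 27 of 104 were. For ERSE, ERSE-II or UPRE together the share was 32.3% (41 of 127), well below that of ERSE alone. Of 282 such genes with CARE, 18.8% were highest in mouse 182. Between the genotypes the ERSE genes had a median log2 fold change of 0.058 and the CARE genes of -0.0051. A match of letters does not show that a factor was bound.

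Over the 8 livers, the tested genes outside the branch most like the mean of the ER chaperone branch by Pearson's r were Dnajb11 (0.99), which encodes a co-chaperone of BiP, AI182371 (0.99), Pdia4 (0.99), Plg (0.99), which encodes plasminogen, and Il1rap (0.99). Those most like the Atf4 branch were Tfcp2l1 (0.97), Slc34a2 (0.96), Samm50 (0.96), Gabbr2 (0.95) and Ppp2r5a (0.94). An r over 0.9 was reached by 188 of 13395 genes for the ER chaperone branch and by 13 for the Atf4 branch, and all of these values share the same 8 libraries, among which mouse 182 stands apart.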

How the data were processed

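RNA of 8 livers was sequenced from a stranded poly(A) library kit (paired-end), and the authors trimmed the reads with Trim Galore (version 0.6.6), aligned them with STAR (2.7.6a) and assigned them to GRCm38 genes with featureCounts of Subread (2.0.1), per the file headers and the submitters' processing notes. The deposited values were raw counts of read pairs per gene, 1 table per mouse. Symbols were matched for 55141 of 55487 genes.

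Genes were kept by filterByExpr with its defaults (minimum count 10, minimum total 15), scaled by TMM and tested with edgeR's two-sided quasi-likelihood test (edgeR 4.0.16, limma 3.58.1, R 4.3.3) on genotype alone, 4 mice per group. Adjustment was by Benjamini-Hochberg over all genes tested, at a threshold of 0.05. Log2 CPM used a prior count of 2. Correlations over mice used exact permutation of pairings. The biological coefficient of variation was 0.209, and the fit was first tested on simulated data. The depth of 10773151 to 24763375 counts sets the limit of 3 counts for a gene at 0.

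Alternatives were DESeq2 (1.42.0), the likelihood ratio test, limma-voom, other scalings and filters, the first residual component as a covariate and leaving out each mouse. Leaving out mice 181 and 182 together and thinning to the lowest total were added after seeing the data. Named genes were the members, in each list those at an unadjusted p under 0.05 and the 3 smallest p-values, and the 5 genes most like each branch, unless said otherwise. The members, lists and tests were chosen with earlier results of these data known, so that no list is independent evidence. The labels name no batch.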

Additional observations from a re-analysis of the deposited data

Results flagged for a closer look

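Within the 4 mice of a genotype, 24 sets of values (the 10 genes and the 2 branch means in each genotype) were examined for 1 liver that stands apart, by the gap to its nearest neighbour divided by the range of the group, compared with Dixon's 95% critical value. Chance would mark about 1 in 20 sets, or 1.2 of these, and 5 were marked, all in Mc1r LKO mouse 182, so that they are not independent of one another. There Hspa5 was at 1892 CPM (gap over range 0.953), Sdf2l1 at 69.8 CPM (0.935), Creld2 at 129 CPM (0.934) and the mean log2 CPM of the ER chaperone branch at 8.39 (0.929), each on the high side. Trib3 was at 4.39 CPM (0.921), on the low side. No set of control values was marked, although control mouse 181 ranked second for Hspa5, Herpud1 and Creld2. Several marker sums of non-parenchymal cells were also lowest in mouse 182, and their part in these values was not tested.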

How the results depend on the processing

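No paired analysis was possible because the mouse numbers are not shared between the genotypes. No member with an adjusted p passed the Benjamini-Hochberg adjustment in any of the 19 alternatives. DESeq2 gave no adjusted p for Asns and Chac1, and Asns was not tested with at least 10 counts in every mouse. At an unadjusted p under 0.05 the count of 1 became 2 with DESeq2, with no filter beyond 1 count and with the first residual component as a covariate, 0 with at least 10 counts in every mouse, 0 to 2 when 1 mouse was left out and 3 without mice 181 and 182. The count of 12 list genes became 24 with the covariate, 22 without mice 181 and 182, and 6 (without mouse 156) to 17 (without mouse 181) when 1 mouse was left out. Counts over all genes also moved. Of 13400 genes, 517 were higher and 384 lower in the main fit, and 525 and 412 with DESeq2. They were 532 and 449 of 13385 without mice 181 and 182, and 632 and 463 of 13674 without mouse 182. For the other settings here the share over all genes is not given. The covariate came from residuals of the same counts and takes up spread between mice by construction. The sign of the log2 fold change turned for Xbp1 with library size only (-0.015), with the covariate (-0.0065) and without mice 181 and 182 (-0.16), for Sdf2l1 (-0.31) and Creld2 (-0.14) without those mice, and for Chac1 with limma-voom (0.048). When 1 mouse was left out, the values ran from -0.18 to 0.36 for Hspa5, -0.19 to 0.15 for Xbp1, -0.47 to 0.47 for Sdf2l1, -0.29 to 0.39 for Creld2, -0.049 to 0.21 for Atf4, -0.34 to 0.13 for Chac1 and -0.60 to 0.033 for Fgf21. Of these, Hspa5, Xbp1, Sdf2l1 and Creld2 turned without mouse 182 (-0.18, -0.19, -0.47 and -0.29), Xbp1 (-0.060), Sdf2l1 (-0.018) and Fgf21 without mouse 154, Atf4 without mouse 193, and Chac1 without mouse 159. Herpud1, Trib3 and Asns kept their sign throughout. Pairs of genes with an exact p under 0.05 went from 8 to 1 within the ER chaperone branch without the 2 farthest mice and to 1 without mice 181 and 182, from 1 to 3 within the Atf4 branch and from 6 to 3 between the branches without the 2 farthest mice. The cause of these changes was not tested. Depth limits Asns most, with 6 to 57 read pairs per liver.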

Other observations

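Of 16 cytosolic heat shock chaperones, mouse 182 was highest in 14, against 20.2% of all genes tested, with 7.24 times the Hspa1b and 5.99 times the Dnajb1 of the other Mc1r LKO livers. Between the genotypes 0 of the 16 had an unadjusted p under 0.05 in edgeR's quasi-likelihood test, 1 (Hspb8) in DESeq2 and 0 in limma-voom. Hspb8 (log2 fold change 0.37, unadjusted p = 0.0510), Dnajb1 (1.07, unadjusted p = 0.0985) and Hspa1b (0.97, unadjusted p = 0.201) had the smallest p-values. Without mouse 182 the log2 fold change of Dnajb1 was -0.10, and the median of the list went from 0.21 to -0.12. Without both mice 181 and 182 that median was 0.073.

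Fgf21 is also a target of PPAR-alpha. In edgeR's quasi-likelihood test the list of 20 PPAR-alpha targets held 3 genes that were higher in Mc1r LKO mice at an unadjusted p under 0.05, against 3.86% of all genes tested, and 0 that were lower, against 2.87%. With DESeq2 2 were higher and 1 lower, and with limma-voom 3 were higher and 0 lower. The median log2 fold change of the list was 0.0019, with 10 of 20 genes above 0. Angptl4, an inhibitor of lipoprotein lipase, was at 109.6 ± 20.7 and 175 ± 6.42 CPM (SD, n = 4 each, log2 fold change 0.67, unadjusted p = 3.65e-04 in edgeR's quasi-likelihood test). Acot1, a cytosolic acyl-CoA thioesterase, was at 15.8 ± 2.80 and 24.0 ± 1.98 CPM (log2 fold change 0.60, unadjusted p = 0.00103), and the genotypes overlapped in neither gene. Both kept this call in 8 of the 8 fits that left out 1 liver. Their adjusted p was 0.734 in edgeR's quasi-likelihood test, and the lowest over all settings was 0.00321 for Angptl4 and 0.0484 for Acot1. Cyp4a14, a fatty acid hydroxylase, had a log2 fold change of 0.88 (unadjusted p = 0.0336) and kept the call in 2 of the 8 fits. With DESeq2 it was not called (unadjusted p = 0.0550). Fgf21 itself was not higher (log2 fold change -0.42), and neither the difference between it and these genes nor their regulation was tested. Of 6 tested FGF21 receptor and co-receptor genes, 0 had an unadjusted p under 0.05 in edgeR, DESeq2 or limma-voom, with Fgfr1 (0.26, unadjusted p = 0.180), Fgfr4 (0.17, unadjusted p = 0.234) and Fgfr2 (-0.23, unadjusted p = 0.239) first in order, and the co-receptor gene Klb at a log2 fold change of 0.19 (unadjusted p = 0.253).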
